A study of Mus musculus with 16 samples.

Results

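The fatty acid binding proteins Fabp7, Fabp5, Fabp3 and Fabp4 were followed in RNA sequencing of mouse spinal cord. These 4 members were chosen by gene symbol from the 24411 gene symbols in the count and TPM files, with their levels and group differences already known. Their values in the 3 group comparisons are therefore given as a description, without p-values. Tests were kept for covariation between mice of the same group and for other genes of fatty acid handling. All 4 members passed the filter on low values (a group mean of more than 1 TPM in any of the 3 conditions), as did 16091 of the 24411 genes. For Fabp4 the filter was passed through the SCI groups.

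All mice were female C57BL/6J. The SCI + Vehicle (n = 7) and SCI + Atorvastatin (n = 7) groups had a lateral compression to 0.25 mm at 12 wk of age. From 2 wk after injury they received daily injections for 4 wk, either of the vehicle (a mix of DMSO, polyethylene glycol, detergent and saline) or of 10 mg/kg atorvastatin, a statin that inhibits cholesterol synthesis, in that vehicle. The Uninjured Control group (n = 2) had neither the injury nor the injections. The labels give 12 wk of age and tissue collection 6 wk after injury, whereas the methods name other days for the collection and the age of the controls, so injury, injections and any difference in age cannot be told apart in comparisons with this group. Each library came from a 5 mm segment at the lesion, or the corresponding segment, of 1 mouse.

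Fatty acid binding proteins are small cytosolic proteins that hold long-chain fatty acids in a barrel-shaped pocket and carry them to membranes, mitochondria, lipid droplets and nuclear receptors. Fabp7, the brain form, marks radial glia and astrocytes and binds docosahexaenoic acid. Fabp5, the epidermal form, is made by neurons, glia and macrophages and can deliver ligands to the receptor PPAR delta. Fabp3, the heart form, is made by heart and skeletal muscle and by mature neurons. Fabp4, the adipocyte form, is a marker of fat cells that is also made by macrophages and some endothelium.

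In the GRCm38 annotation, Fabp7 lies at chr10:57784881-57788450 on the plus strand and Fabp3 at chr4:130308595-130315463 on the plus strand. Fabp5 (chr3:10012548-10016607, plus strand) and Fabp4 (chr3:10204088-10208576, minus strand) sit 187.5 kb apart in a cluster of 5 family genes on chromosome 3. The files give a single value per gene and do not separate exons or untranslated regions. Processed pseudogenes of Fabp5 (Fabp5l2) and Fabp3 (Fabp3-ps1) are annotated but are not rows of the tables, so reads shared with them could fall in these counts. Fabp7 and Fabp3, the members with the clearest differences from the Uninjured Control group in opposite directions, had an entry among the RefSeq promoters (GRCm38.p6), and the bases just before the start of each gene are shown to allow a comparison. Fabp4 and Fabp5 had no entry. Capitals mark CAAAT and ATTGG, the latter an inverted CCAAT box, on the strand shown.
Fabp7, chr10:57784673-57784880, plus strand: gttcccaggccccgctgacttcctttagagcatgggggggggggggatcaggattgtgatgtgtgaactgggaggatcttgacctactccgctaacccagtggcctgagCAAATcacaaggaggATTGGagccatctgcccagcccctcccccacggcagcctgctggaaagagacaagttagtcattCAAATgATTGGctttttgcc
Fabp3, chr4:130308488-130308594, plus strand: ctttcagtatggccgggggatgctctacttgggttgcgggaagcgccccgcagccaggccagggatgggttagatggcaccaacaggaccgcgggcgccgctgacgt

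On both strands of the 300-base windows, CAAAT was found 2 times at Fabp7 and 0 times at Fabp3, and 37.7% of 32851 promoters held it. ATTGG was likewise found 2 times at Fabp7 and 0 times at Fabp3, with a share of 37.4%. The nuclear receptor half-site AGGTCA was found 1 time at Fabp7 and 0 times at Fabp3 (share 16.3%), and the E-box CANNTG 2 times and 1 time (share 72.3%). TATAAA (share 13.6%) and the GC box GGGCGG (share 35.7%) were found at neither. These matches describe the letters in the windows only.

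Libraries held 14823292 to 25579826 counts on genes, and a count of 0 allowed up to 3 counts, or 0.117 to 0.202 CPM (counting error only, because reads that carry no molecular identifiers may be copies of 1 molecule). The Uninjured Control libraries had counts in 12732 and 12356 genes, and the SCI libraries in 16399 to 19338. Of 3987 genes that averaged 102 to 408 counts over the SCI libraries, 25.03% and 29.25% were at 0 in the 2 controls, against 0.502% or less per SCI library. In skeletal muscle markers, SCI + Atorvastatin replicate 2 (summed TPM 4226) and SCI + Vehicle replicate 3 (summed TPM 1048) stood apart from the other SCI mice (7.15 to 233). Liver markers summed to 6436 and 1223 TPM in the controls and to at most 13.4 in the SCI mice. Defining markers of spinal cord were present in all groups, with neuron markers at a summed TPM of 6623 or more and oligodendrocyte markers at 13100 or more in every mouse.

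A gene was called higher or lower against the Uninjured Control group at a Benjamini-Hochberg adjusted p below 0.05 in edgeR's quasi-likelihood test and an absolute log2 fold change above 0.322, a change of over 25%. Between the treatments the study's limit was an unadjusted p below 0.001 with the same fold change. The study relaxed it because its genes of interest had passed the adjusted limit against the Uninjured Control group. Here the limit was applied to all genes tested, so these counts of calls are not the study's. Against the Uninjured Control group, Fabp7 and Fabp4 were called higher and Fabp3 lower in both SCI groups, and Fabp5 was called in neither. Over all genes, 19.9% were called higher and 9.91% lower in SCI + Vehicle, and 24.9% higher and 14.02% lower in SCI + Atorvastatin. Between the treatments Fabp7 was the only member called (higher with atorvastatin), where 0.0870% of genes were called higher and 0.0186% lower. At an unadjusted p below 0.05, with no limit on the fold change, these shares were 4.02% and 3.01%. No gene passed an adjusted p of 0.05 between the treatments: edgeR gave 1132 of 16091 genes at an unadjusted p below 0.05 and a smallest adjusted p of 0.680, and DESeq2 and limma likewise gave 0 genes, with smallest adjusted p of 0.200 and 0.355. The members were listed for these comparisons, so their calls carry no weight beyond the description. The 2 comparisons with the Uninjured Control group share the same 2 mice.

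Pairs of values of the Uninjured Control mice are given in the order of replicates 1 and 2. Levels are given in TPM, which corrects for gene length, and differences between groups as log2 fold changes of counts.

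**Figure D1:**
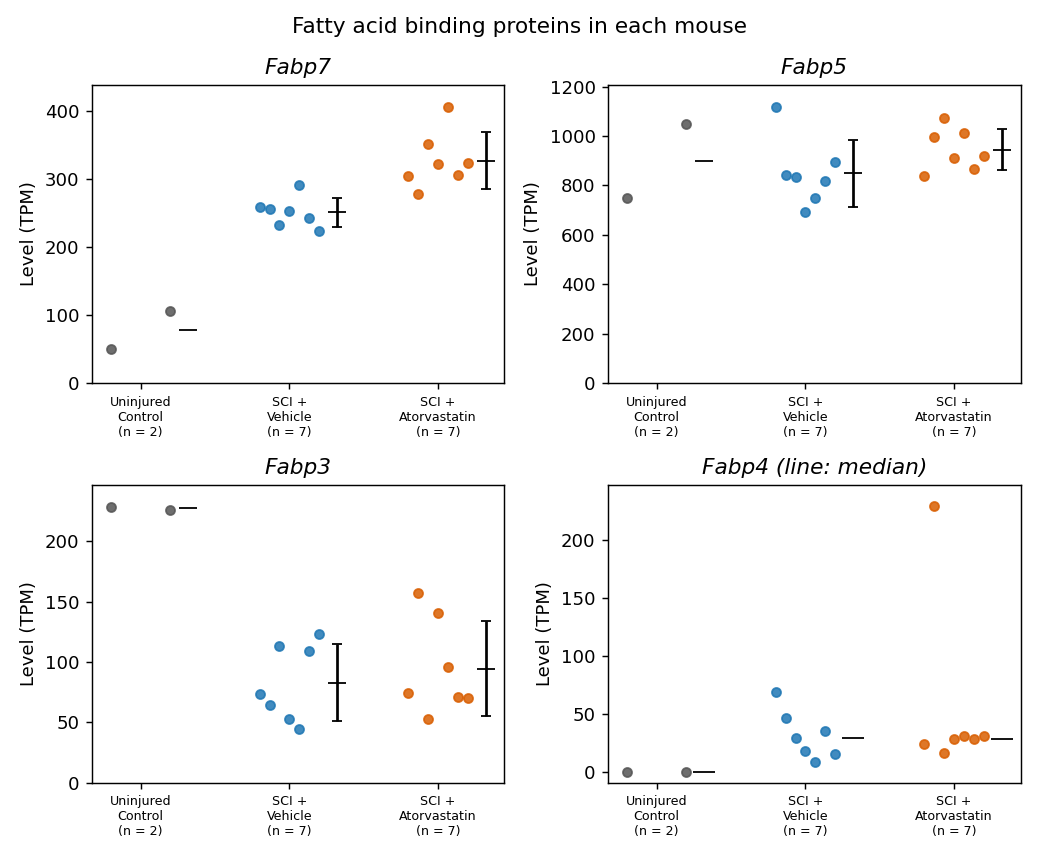
TPM (vertical axes, from 0) of the 4 members in each mouse by group, with points for mice, short lines for means and bars for SD in the groups of 7. For Fabp4 the line is the median, and SCI + Atorvastatin replicate 2 stands at 229 TPM above the other mice.

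Fabp7 was lower in both uninjured mice than in every SCI mouse, although it still ranked 2274 of 24411 genes by mean TPM in the controls. Its TPM was 49.7 and 106 in the Uninjured Control mice. In SCI + Vehicle it ranged from 224 to 291 (median 252, mean 251 ± 21.7 SD, n = 7), and in SCI + Atorvastatin from 277 to 406 (median 322, mean 327 ± 41.4 SD, n = 7). All SCI mice lay above both controls, and 6 of 7 atorvastatin-treated mice lay above the highest vehicle mouse. The share of all genes with groups set apart like this was not determined, so such statements, here and below, are a description only.

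On counts, the log2 fold change of Fabp7 was 1.46 ± 0.16 (SE) in SCI + Vehicle vs. Uninjured Control, 1.85 ± 0.17 in SCI + Atorvastatin vs. Uninjured Control and 0.37 ± 0.089 in SCI + Atorvastatin vs. SCI + Vehicle. In TMM-normalized CPM the controls stood at 21.2 and 21.7. The SCI + Vehicle mice ranged from 55.6 to 66.0 CPM and the SCI + Atorvastatin mice from 67.9 to 97.0 CPM, so on this scale the treatments did not overlap. SCI + Atorvastatin replicates 5 (97.0 CPM) and 3 (87.0 CPM) were the highest. The call between the treatments was lost without SCI + Atorvastatin replicate 3 or 5 or SCI + Vehicle replicate 3 or 6, with a log2 fold change of 0.34, 0.31, 0.35 and 0.35. In the other 10 of these 14 fits the call was kept, and Fabp7 was higher with atorvastatin in all 14.

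**Figure D2:**
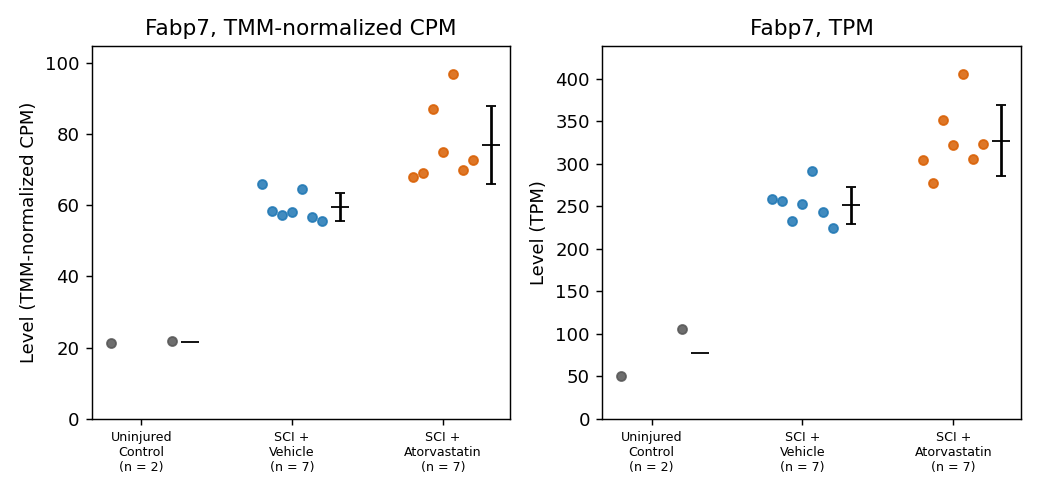
Fabp7 in each mouse in TMM-normalized CPM (left) and TPM (right), both axes from 0, with mean lines and SD bars in the groups of 7. The 2 controls lie together in CPM and apart in TPM, and the treatments overlap only in TPM.

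The scales differed most in Uninjured Control replicate 1, where TPM per CPM of Fabp7 was 2.35, against 3.93 to 4.86 in the other 15 libraries. By mean TPM, SCI + Vehicle stood at 3.23 times the controls and SCI + Atorvastatin at 4.21 times, and by mean CPM at 2.77 and 3.59 times. Between the treatments the ratio was 1.303 in TPM and 1.293 in CPM.

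Summed markers of cells that make Fabp7 were higher in every SCI mouse than in both controls, although single astrocyte markers went both ways. Astrocyte markers (10 genes) summed to 4685 and 5424 TPM in the controls, to 9017 to 11430 in SCI + Vehicle and to 10030 to 11510 in SCI + Atorvastatin. Of these 10 genes, 5 were called higher and 2 lower in both comparisons with the controls, with a median log2 fold change of 0.17 and 0.25, where that of all genes tested was 0.17 and 0.21. Markers of radial glia and immature astrocytes (9 genes, with Slc1a3 in both lists) summed to 346.7 and 246 TPM, to 927 to 1764 and to 1604 to 1823, and 5 and 6 of the 9 were called higher and 0 lower. Their part in the level of Fabp7 was not tested between groups, and in bulk tissue more cells of a type and more RNA per cell cannot be told apart. Between the treatments 0 of 10 astrocyte and 0 of 9 radial glia markers were called, and at an unadjusted p below 0.05 the counts were 0 and 3, all 3 higher with atorvastatin.

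Fabp5 was the most abundant member in every group and differed little between them. Its TPM was 750.5 and 1049 in the Uninjured Control mice, 690.2 to 1117 in SCI + Vehicle (median 833, mean 849 ± 136 SD, n = 7) and 838 to 1071 in SCI + Atorvastatin (median 919, mean 945 ± 84.2 SD, n = 7). The 3 groups overlapped. By mean TPM it ranked 131 of 24411 genes in the controls, 123 in SCI + Vehicle and 101 in SCI + Atorvastatin.

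On counts, the log2 fold change of Fabp5 was -0.29 ± 0.19 in SCI + Vehicle vs. Uninjured Control, -0.12 ± 0.13 in SCI + Atorvastatin vs. Uninjured Control and 0.15 ± 0.11 in SCI + Atorvastatin vs. SCI + Vehicle. The second of these turned to 0.086 in limma on log2(TPM + 1). SCI + Vehicle held both the lowest SCI mouse (replicate 4, 690.2 TPM) and the highest (replicate 1, 1117 TPM). Microglia and macrophages are among the cells that make Fabp5, and their 11 markers summed to 199 and 274 TPM in the controls and to 2135 to 3786 in the SCI mice. The level of Fabp5 overlapped between these same groups.

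Fabp3 was lower in every SCI mouse than in both controls. Its TPM was 229 and 226 in the Uninjured Control mice, 44.8 to 124 in SCI + Vehicle (median 73.0, mean 82.8 ± 31.8 SD, n = 7) and 52.5 to 157 in SCI + Atorvastatin (median 74.4, mean 94.5 ± 39.5 SD, n = 7). The treatments overlapped over most of their range.

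On counts, the log2 fold change of Fabp3 was -1.42 ± 0.27 in SCI + Vehicle vs. Uninjured Control, -1.27 ± 0.25 in SCI + Atorvastatin vs. Uninjured Control and 0.12 ± 0.18 in SCI + Atorvastatin vs. SCI + Vehicle. In CPM the controls were at 79.3 and 77.9, the SCI + Vehicle mice at 18.9 to 40.8 and the SCI + Atorvastatin mice at 20.4 to 46.7. Neuron markers (11 genes) summed to 10690 and 13290 TPM in the controls, to 7211 to 10810 in SCI + Vehicle and to 6623 to 9335 in SCI + Atorvastatin. These sums were below both controls in every SCI mouse but SCI + Vehicle replicate 7. The part of neurons in the level of Fabp3 was not tested between groups.

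The mice with the highest skeletal muscle markers also had the highest Fabp3 CPM of their groups. SCI + Atorvastatin replicate 2 had 46.7 CPM of Fabp3, and SCI + Vehicle replicate 3 had 40.8 CPM. SCI + Atorvastatin replicate 4, next by muscle markers (233 TPM summed), was second in its group with 38.4 CPM of Fabp3. In TPM the highest SCI + Vehicle mouse was replicate 7 (124). With SCI + Atorvastatin replicate 2 and SCI + Vehicle replicate 3 left out, Fabp3 had log2 fold changes of -1.51 (SCI + Vehicle) and -1.38 (SCI + Atorvastatin) against Uninjured Control, and Fabp3 was still called lower in both.

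**Figure D3:**
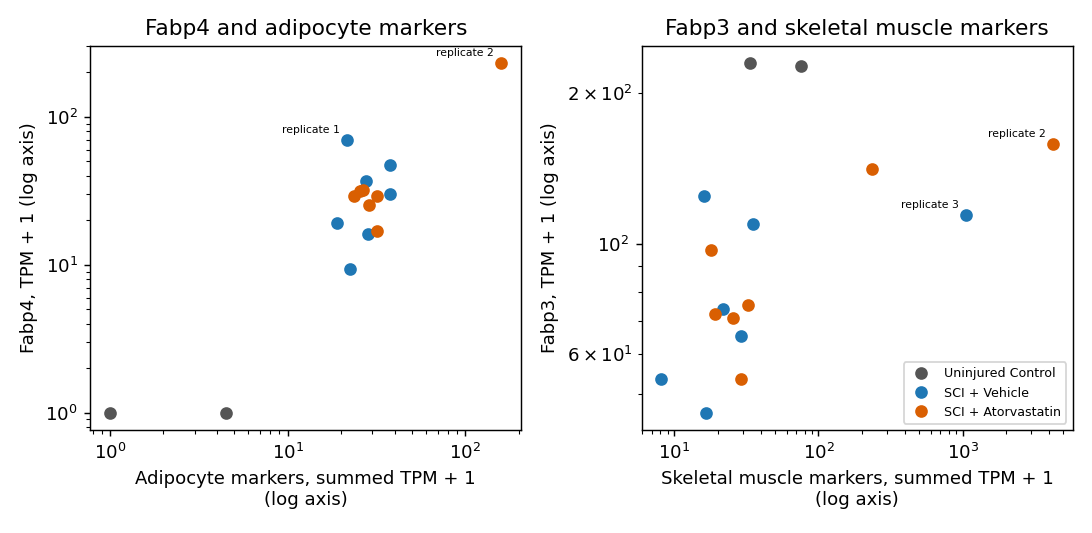
Fabp4 against summed adipocyte markers (left) and Fabp3 against summed skeletal muscle markers (right), each as TPM + 1 on log axes, 1 point per mouse. SCI + Atorvastatin replicate 2 is at the far right of both panels, and SCI + Vehicle replicate 3 is second on the muscle axis.

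Fabp4 had no count in either Uninjured Control mouse and had counts in all 14 SCI mice. In SCI + Vehicle its TPM ranged from 8.30 to 68.7 (median 28.9, n = 7), from 32 to 377 counts. In SCI + Atorvastatin, 6 mice lay between 16.1 and 30.8 TPM (116 to 180 counts), and replicate 2 was at 229 TPM (998 counts). The median of all 7 was 28.2 TPM, close to that of SCI + Vehicle, although the means were 55.3 and 31.6 TPM.

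Both controls were set at their floor of 3 counts per library (0.148 CPM), which covers counting error only. On counting error alone, Fabp4 was at least 45.2-fold higher in SCI + Vehicle and at least 76.6-fold higher in SCI + Atorvastatin. Without the highest mouse of each group (SCI + Vehicle replicate 1 and SCI + Atorvastatin replicate 2) these bounds were 34.1-fold and 38.3-fold. A count of 0 in both controls was found in 11.7% of the 3987 genes of similar counts, so it was common at this level. The true difference could therefore lie below these bounds. In SCI + Atorvastatin vs. SCI + Vehicle the log2 fold change was 0.77 ± 0.54, and it turned to -0.23 without SCI + Atorvastatin replicate 2.

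Adipocyte markers other than Fabp4 (8 genes) summed to 0 and 3.52 TPM in the controls, where 7 of the 8 (Adipoq, Plin1, Cidec, Lep, Cfd, Retn and Cidea) had no count. They summed to 18.0 to 36.8 TPM in SCI + Vehicle. In SCI + Atorvastatin they summed to 22.6 to 30.8 TPM in 6 mice and to 159 TPM in replicate 2, where Adipoq, the fat cell hormone adiponectin, had 160 counts against at most 39 in the other mice. Adipoq had no count in SCI + Atorvastatin replicates 3 and 4 and SCI + Vehicle replicates 4 and 5. Within these sums, Lipe alone stood at 9.16 to 17.9 TPM in SCI + Vehicle and 9.88 to 21.3 TPM in SCI + Atorvastatin. It was the marker with counts in the controls (73 and 175). Endothelium markers (10 genes) overlapped between the groups, at 186 and 119 TPM in the controls, 98.5 to 197 in SCI + Vehicle and 154 to 226 in SCI + Atorvastatin. Markers of microglia or macrophages, the latter among the cells that make Fabp4, were higher in every SCI mouse as well (199 and 274 TPM in the controls, 2135 to 3786 in the SCI mice), with 9 and 10 of 11 called higher in SCI + Vehicle and SCI + Atorvastatin vs. Uninjured Control. The part of fat tissue and of macrophages in the level of Fabp4 was not tested between groups.

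**Figure D4:**
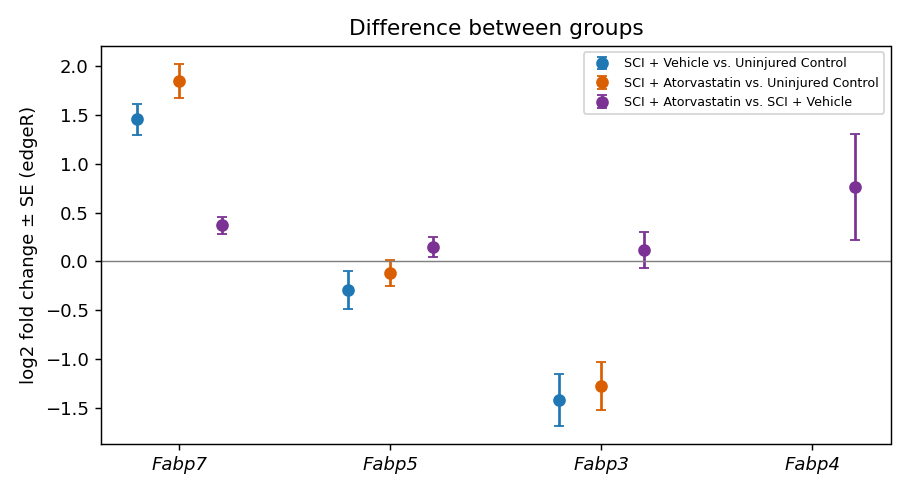
Log2 fold change (points) with its standard error (bars) from edgeR for each member in the 3 comparisons. Fabp4 is shown only between the treatments because both controls had no count, and Fabp7 and Fabp3 lie on opposite sides of 0 against the Uninjured Control group.

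The make-up of the family differed between uninjured and injured cord. The 4 members summed to a mean of 1205 TPM in the Uninjured Control group, 1215 in SCI + Vehicle and 1422 in SCI + Atorvastatin. Fabp5 held 74.5%, 69.7% and 66.6% of that sum in the same order. Fabp7 held 6.24%, 21.0% and 23.2%, and Fabp3 held 19.3%, 6.80% and 6.58%. The order by mean TPM was Fabp5, Fabp3, Fabp7 and Fabp4 in the controls and Fabp5, Fabp7, Fabp3 and Fabp4 in both SCI groups. Within each of the 14 SCI mice, Fabp5 stood above Fabp7 and Fabp7 above Fabp3. Fabp3 stood above Fabp4 in each SCI mouse except SCI + Atorvastatin replicate 2 (157 and 229 TPM), although the ranges of these 2 genes overlapped within both SCI groups.

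Whether the members moved together from mouse to mouse was tested over the 14 SCI mice, as deviations from the group means in log2 CPM (permutation test within groups, two-sided, 12 relations adjusted together). No pair of members passed over all 14 mice. The closest were Fabp5 with Fabp4 (Pearson r = 0.54, p = 0.062, Spearman rho = 0.48, p = 0.12, adjusted p = 0.25 and 0.36) and Fabp7 with Fabp5 (r = 0.42, p = 0.091, rho = 0.32, p = 0.24, adjusted p = 0.27 and 0.54). Without the 2 mice farthest from the median of the first gene these r were 0.45 and 0.27. Without SCI + Vehicle replicate 7, Fabp5 with Fabp4 had an r of 0.66 (adjusted p = 0.071 by permutation) and a rho of 0.76 (adjusted p = 0.022), which passed. The other 4 pairs had r between -0.24 and 0.40, and adjusted p of 0.36 or more. On log2(TPM + 1) the order of the pairs changed. Fabp7 with Fabp3 was then the closest (r = -0.54, p = 0.053, rho = -0.65, p = 0.019, adjusted p = 0.25 and 0.12), where its r in log2 CPM was -0.24, and Fabp7 with Fabp5 had an r of 0.098.

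Fabp4 with 7 adipocyte markers had the highest r of the 12 relations, 0.80 (p = 0.0063, adjusted p = 0.075), with a rho of 0.71 (p = 0.0074, adjusted p = 0.088). The r fell to 0.58 without SCI + Atorvastatin replicate 2 and SCI + Vehicle replicate 1, and in SCI + Atorvastatin alone it was 0.93, against 0.67 in SCI + Vehicle alone (n = 7 each). The value within SCI + Atorvastatin rested on replicate 2, without which it was 0.19. With 1 mouse left out, the relation passed an adjusted p of 0.05 by r without SCI + Vehicle replicate 3 (r = 0.85, rho = 0.59) and by rho without SCI + Atorvastatin replicate 1 (r = 0.82, rho = 0.81) or SCI + Vehicle replicate 7 (r = 0.82, rho = 0.80). Fabp5 with microglia or macrophage markers had an r of 0.53 (p = 0.057, adjusted p = 0.25) and a rho of 0.57 (p = 0.049, adjusted p = 0.29), with 0.90 within SCI + Atorvastatin and 0.31 within SCI + Vehicle. The r of Fabp5 was 0.46 without the 2 farthest mice, and without SCI + Vehicle replicate 7 the relation had an r of 0.67 (adjusted p = 0.071 by permutation) and a rho of 0.82 (adjusted p = 0.022), which passed. Fabp7 with astrocyte markers (r = -0.38) and with radial glia markers (r = 0.20), Fabp3 with neuron markers (r = 0.21) and Fabp4 with endothelium markers (r = 0.10) had adjusted p of 0.34, 0.63, 0.63 and 0.78.

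Of 13999 other genes with a mean of at least 50 counts, those most like each member by the same measure over the 14 mice were Sdf2, Hspa4 and Slain2 for Fabp7 (r = 0.81, 0.80 and 0.80) and Rpl41, Ptgr2 and Dhdh for Fabp5 (r = 0.91, 0.90 and 0.90). They were Stk32b, Bok and Dusp28 for Fabp3 (r = 0.88, 0.88 and 0.86) and Kat2b, Igsf10 and Acadm for Fabp4 (r = 0.90, 0.86 and 0.86). Acadm, a mitochondrial enzyme of fatty acid beta-oxidation, is the only gene of these 12 in the fatty acid lists. The mice share libraries and depth across genes, and no p is given for these likenesses.

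Among the other intracellular lipid-binding proteins, 11 of 12 were in the files and 5 were tested. Fabp1, the liver form, had 2088 and 406 counts in the controls and 10 or fewer in each SCI mouse, and the control with more Fabp1, replicate 1, also had the higher liver markers (6436 against 1223 TPM). It was called lower in both comparisons, and its part in those markers was not tested. Crabp1, which binds retinoic acid, had 26.3 and 72.1 TPM in the controls and 9.00 to 24.8 in SCI + Vehicle, a log2 fold change of -1.41 ± 0.52 (edgeR adjusted p = 0.065), and it fell by 1.89 ± 0.50 in SCI + Atorvastatin (adjusted p = 0.013). Crabp2, of the same function, was not called, with 88 and 147 counts in the controls and 0 to 462 in the SCI mice. Pmp2, the myelin form, overlaps another locus, had 0 and 200 counts in the controls and 0 to 103 in the SCI mice, and was not called. Fabp2, Fabp6, Fabp9, Fabp12, Rbp2 and Rbp7 were not tested, with 0 counts in both controls and at most 25 in any SCI mouse. None of the 5 tested was called between the treatments, and none had an unadjusted p below 0.05.

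Genes that act around the members were followed in 7 lists, of which 83 genes were distinct, 82 in the files and 76 tested. In SCI + Vehicle vs. Uninjured Control 12 were called higher and 12 lower, and in SCI + Atorvastatin vs. Uninjured Control 16 and 15. The shares over all 16091 genes tested were 19.9% higher and 9.91% lower in the first comparison, and 24.9% and 14.02% in the second. These shares also stand beside the counts of each single list below, which are a description only. Without Uninjured Control replicate 1 the numbers called higher were 21 and 25, and without replicate 2 in SCI + Vehicle they were 22 higher and 21 lower. The median log2 fold change of the list was -0.03 in both, where that of all genes tested was 0.17 and 0.21, and these medians did not change with genes absent from both controls set at their bound. Between the treatments 0 of 76 were called, and the list's median was 0.02.

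**Figure D5:**
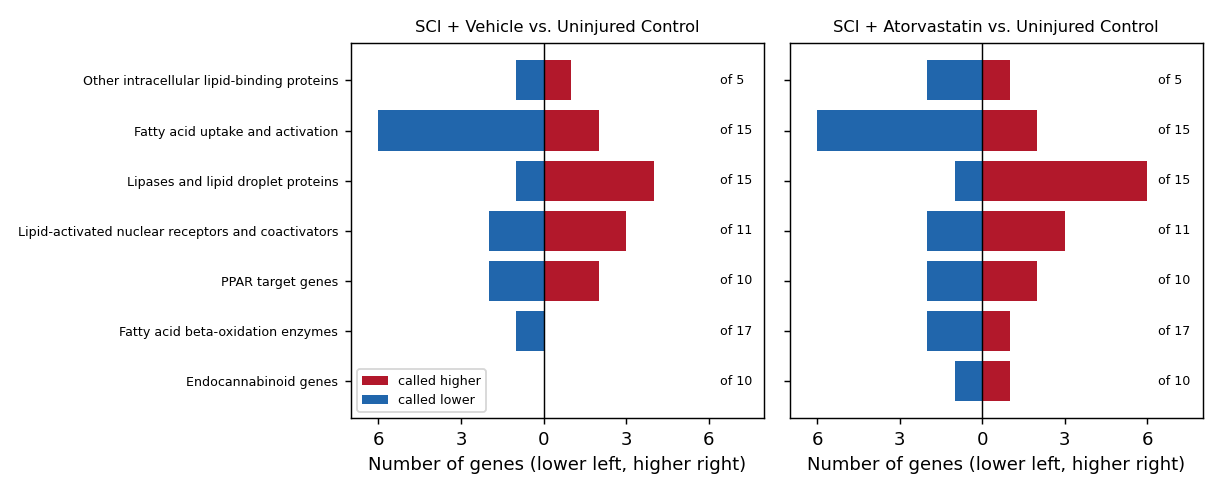
Number of genes called higher (right of 0) and lower (left of 0) in each of the 7 lists against the Uninjured Control group, with the number tested beside each bar. Lipases and lipid droplet proteins have more genes called higher than lower, and uptake and activation genes more called lower. More of all genes tested were called higher than lower as well (19.9% and 9.91% in SCI + Vehicle, 24.9% and 14.02% in SCI + Atorvastatin).

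In uptake and activation of fatty acids, 2 of 15 genes were called higher and 6 lower in both comparisons (median -0.42 and -0.30). Dbi, which carries activated fatty acids, had 741 and 1150.4 TPM in the controls and rose by 0.70 ± 0.16 in SCI + Vehicle and 0.88 ± 0.13 in SCI + Atorvastatin (edgeR adjusted p = 0.0092 and 0.00054). Cd36, a membrane receptor for fatty acids, had 4 and 0 counts in the controls and a mean of 4.99 ± 2.44 and 6.41 ± 5.13 TPM in SCI + Vehicle and SCI + Atorvastatin, and was called higher in both. Slc27a2, a fatty acid transporter and acyl-CoA synthetase, was lower (-1.86 ± 0.27 and -2.09 ± 0.20, log2, adjusted p = 0.00067 and 5.8e-05). Acsl6, an acyl-CoA synthetase of neurons and glia, was lower (-0.60 ± 0.099 and -0.74 ± 0.087, adjusted p = 0.0014 and 0.00014).

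Of 15 lipases and lipid droplet proteins, 4 were called higher and 1 lower in SCI + Vehicle, and 6 and 1 in SCI + Atorvastatin (median 1.05 and 1.17). Plin2, a droplet coat protein, had 24.9 and 24.8 TPM in the controls and rose by 1.40 ± 0.24 and 1.64 ± 0.22 (adjusted p = 0.0019 and 0.00033). Soat1, which makes cholesterol esters for droplets, rose by 0.96 ± 0.16 and 1.17 ± 0.11 (adjusted p = 0.0015 and 5.7e-05). Plin3, another coat protein, was lower (-0.68 ± 0.16 and -0.60 ± 0.14, adjusted p = 0.0094 and 0.0070). Plin1, Cidec and Lipe of this list are also adipocyte markers.

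Of 11 lipid-activated nuclear receptors and coactivators, 3 were called higher and 2 lower in both comparisons (median -0.44 and -0.31). Pparg, the receptor of the adipocyte program, had 0 counts in both controls. On counting error alone, it was at least 19.4-fold higher in SCI + Vehicle and at least 17.7-fold higher in SCI + Atorvastatin. As for Fabp4, the true difference could lie below these bounds. Rarb, a retinoic acid receptor, had 0 and 36 counts in the controls and rose by 3.91 ± 1.19 and 4.48 ± 1.06 (adjusted p = 0.030 and 0.0072). Rara, a related receptor, was lower (-1.75 ± 0.25 and -1.74 ± 0.23, adjusted p = 0.00061 and 0.00026). Rxra, the partner of these receptors, was lower (-0.54 ± 0.16 and -0.42 ± 0.14, adjusted p = 0.028 and 0.034).

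Of 10 PPAR target genes, 2 were called higher and 2 lower in both comparisons (median -0.11 and -0.08). Angptl4, a secreted inhibitor of lipoprotein lipase, had 0 counts in both controls and, on counting error alone, was at least 16.8-fold and 30.8-fold higher. Its lowest mouse stood at 2.53 times the floor in SCI + Vehicle and at 19.55 times in SCI + Atorvastatin. Here too the true difference could lie below the bounds. Ucp2, a mitochondrial carrier, rose by 0.89 ± 0.14 and 0.87 ± 0.18 (adjusted p = 0.0011 and 0.0038). Ehhadh, a peroxisomal beta-oxidation enzyme, was lower (-1.26 ± 0.40 and -1.31 ± 0.41, adjusted p = 0.036 and 0.029).

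Of 17 enzymes of fatty acid beta-oxidation, 0 were called higher and 1 lower (Ehhadh) in SCI + Vehicle, and 1 and 2 in SCI + Atorvastatin (median -0.02 and -0.03). Acadl, an acyl-CoA dehydrogenase, rose by 0.42 ± 0.14 in SCI + Atorvastatin (adjusted p = 0.033), with 0.40 ± 0.18 in SCI + Vehicle (adjusted p = 0.12). Hadh fell by 0.67 ± 0.18 in SCI + Atorvastatin (adjusted p = 0.015), with -0.64 ± 0.32 in SCI + Vehicle (adjusted p = 0.16). Fabp5 and Fabp7 also carry endocannabinoids within cells, and of 10 endocannabinoid genes 0 were called in SCI + Vehicle and 1 each way in SCI + Atorvastatin (median -0.02 and 0.02). These were Daglb (higher, 0.70 ± 0.23, adjusted p = 0.031) and Dagla (lower, -0.81 ± 0.26, adjusted p = 0.032), the diacylglycerol lipases, at 0.53 ± 0.22 and -0.66 ± 0.27 in SCI + Vehicle (adjusted p = 0.098 and 0.095). These differences between the comparisons were not tested.

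Between the treatments, 4.02% of all genes were higher and 3.01% lower with atorvastatin at an unadjusted p below 0.05 in edgeR. Of the 76 genes, 8 had such a p, 6 higher and 2 lower, and all 8 had an adjusted p of 0.68 or more. Among the higher were Angptl4 (log2 fold change 0.87 ± 0.39), Rarb (0.54 ± 0.19), Soat1 (0.20 ± 0.080), Naaa (0.19 ± 0.085) and Dbi (0.16 ± 0.074). The lower were Cpt1c (-0.21 ± 0.098) and Acsl6 (-0.16 ± 0.068). Naaa degrades palmitoylethanolamide, and Cpt1c is the neuronal relative of the carnitine palmitoyltransferases.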

How the data were processed

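RNA of 16 spinal cord segments, 1 per mouse, was sequenced on total RNA libraries. Per the submitters' notes, the authors used FastQC 0.12.1, Trimmomatic 0.38, STAR 2.5.4b with mm10 and RSEM 1.3.1. They deposited whole-number counts, not normalized, and TPM, normalized for gene length. The step that made the counts is not given in the sources used here, and for some genes counts and TPM disagree. Library totals set the precision and are given in the text.

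Groups came from the labels. The members and lists were chosen with earlier results of these data known. Pairs of groups were compared in R 4.3.3 with edgeR 4.0.16 (TMM, full library totals, quasi-likelihood, Benjamini-Hochberg over 16091 genes), the main test, where the study used DESeq2. Log2 CPM used a prior count of 1. Covariation used 100000 permutations within groups. Genes named are the 4 members, the other lipid-binding proteins, in each fatty acid list the 2 called genes with the smallest p per direction and comparison against the Uninjured Control group, list genes at an unadjusted p below 0.05 between treatments, and the 3 genes most like each member. A few genes that the rule picks are left out of the text. Adipoq is named beyond this rule, chosen after its values were seen. Alternatives were DESeq2 1.42.0, its size factors, other filters, all groups in 1 fit, limma 3.58.1 on log2(TPM + 1), a block for replicate numbers, and single mice left out. Without SCI + Atorvastatin replicate 2 and SCI + Vehicle replicate 3 together was added after seeing the data. The tests were checked on simulated data, where controls were drawn from the means and spread of SCI + Vehicle. That check does not cover the many zeros of the real controls. No 2 libraries of a group agreed within counting error. Figures used matplotlib 3.10.9 in Python 3.11.15.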

Additional observations from a re-analysis of the deposited data

Results flagged for a closer look

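Fabp4 in SCI + Atorvastatin replicate 2 stood far above the other 6 mice of its group, at 45.1 CPM where the next was 6.99, and at 229 TPM where the next was 30.8. It was the only such sample among the 4 members and Pmp2, Crabp1 and Crabp2 in both SCI groups and on both scales (28 sets of 7 values, of which chance alone would pick out about 1 in 20). The same mouse had the highest summed adipocyte and skeletal muscle markers of all mice, and their part in its Fabp4 level was not tested.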

How the results depend on the processing

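The direction of the called members held in every alternative run. The replicate numbers did not pair the mice (correlations of same-numbered SCI mice from -0.15 to 0.08). With the replicate block the calls were lost for Fabp7 (1.55 and 1.69 in SCI + Vehicle and SCI + Atorvastatin vs. Uninjured Control, 0.36 between treatments), Fabp3 (-1.69 and -0.999) and Fabp4 (fitted 11.05 and 12.0, no bounds), genes called fell to 27, 0 and 8, and called fatty acid list genes to 0 higher and 0 lower in both comparisons with controls. None of the 12 relations passed under the block, on log2(TPM + 1) or with DESeq2 size factors. Genes called were 4789, 6260 and 17 in the order of the 3 comparisons. When each condition had to average above 1 TPM they were 2394, 3693 and 11, with 6 and 9 list genes higher, and when each mouse had to reach 10 counts 2862, 4020 and 10, with 7 and 9 list genes higher, since fewer genes were tested. Neither filter kept Fabp4. Between treatments, DESeq2 called 37 genes, all groups in 1 fit 1, and the fit without SCI + Atorvastatin replicate 2 and SCI + Vehicle replicate 3 called 8 and turned Fabp4 to -0.26. The causes were not tested. Limma on log2(TPM + 1) turned Fabp5 in SCI + Atorvastatin vs. Uninjured Control to 0.086.

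With each mouse left out, genes called ranged from 3839 to 7806, 5582 to 9826 and 5 to 32, list genes from 9 to 22 higher and 9 to 21 lower in SCI + Vehicle and from 12 to 25 higher in SCI + Atorvastatin, the Fabp7 difference between treatments from 0.31 to 0.40, that of Fabp4 from -0.23 to 1.15, and relations passed from 0 to 1 by r and from 0 to 3 by rho. The highest counts against controls came without Uninjured Control replicate 1 (7673 and 9707) or 2 (7806 and 9826), where the lone control is assumed to vary like the SCI mice. With 2 control mice, counting error alone set a floor of 0.148 CPM there. Higher levels could also be missed, since 25.03% and 29.25% of the 3987 genes with 102 to 408 counts were at 0 in the controls.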

Other observations

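Of 3 marker lists that no comparison above used, Schwann cell markers were lower in every SCI mouse than in both controls by summed TPM, while fibroblast and oligodendrocyte precursor markers overlapped between SCI + Vehicle and the controls. Fibroblast markers (6 genes) summed to 138 and 122 TPM in the Uninjured Control mice, 63.3 to 685 in SCI + Vehicle and 449 to 1141 in SCI + Atorvastatin, and 5 of 6 were called higher in SCI + Atorvastatin vs. Uninjured Control, against 0 of 6 in SCI + Vehicle vs. Uninjured Control. That difference was not tested. Between the treatments all 6 had an unadjusted p below 0.05, higher with atorvastatin, and 0 were called. Schwann cell markers (7 genes) summed to 1096 and 1166 TPM in the controls and 664 to 1055 in the SCI mice, and oligodendrocyte precursor markers (5 genes) to 286 and 274 TPM and 248.9 to 398. Of the 7 Schwann cell genes, 0 were called in SCI + Vehicle and 2 lower in SCI + Atorvastatin vs. Uninjured Control. Their median log2 fold change was -0.29 and only -0.03, so the lower sum does not describe each gene of the list.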
